A study of Mus musculus with 2 samples.

Results

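The small leucine-rich proteoglycans (SLRPs) were followed through 9 genes, *Dcn*, *Lum*, *Bgn*, *Fmod*, *Ogn*, *Aspn*, *Prelp*, *Omd* and *Epyc*, chosen by symbol from the 27998 genes of the count tables. Each symbol matched a single gene. The tables hold single-cell RNA sequencing of Tomato+ cells sorted from the dermis of re-epithelialized wounds of mice aged 4 to 5 weeks, with 1 library for each genotype. The control library came from *SM22rtTA; tetO-Cre; R26-Tomato* mice and the *SM22-SmoM2* library from *SM22rtTA; tetO-Cre; R26-SmoM2/Tomato* mice. Both genotypes carry rtTA under the *SM22α* promoter and a tetO-Cre, both received doxycycline at 20 g/kg from the day after wounding, and both were sampled 3 days after re-epithelialization. Cre switches on Tomato, a red fluorescent protein, in both. In *SM22-SmoM2* mice it also switches on SmoM2, a constitutively active Smoothened that drives the Hedgehog (Hh) pathway. The *SM22α* promoter is known for smooth muscle and myofibroblasts, and the sorted cells held other lineages as well. Wounds of several mice were pooled in each library. The genotype and the library therefore cannot be told apart, and no test between conditions was possible. Levels are given as CPM, a gene's unique molecular identifiers (UMIs, each a counted mRNA molecule) over all UMIs of the cells summed, scaled to 1000000. All intervals are 95% and cover counting error only.

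SLRPs are secreted proteins with a core of leucine-rich repeats, most of which carry chondroitin, dermatan or keratan sulfate chains. They bind fibrillar collagens and shape fibril diameter and spacing, and several also bind growth factors of the TGF-β family. Decorin is the main SLRP of the dermis, and mice without decorin or lumican have fragile skin. Hh signalling is known to drive the dermal papilla (DP), the fibroblast cluster that instructs the hair follicle.

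Most of these genes lie in 3 genomic clusters (build GRCm38). *Dcn*, *Lum*, *Kera* and *Epyc* followed each other within 203 kb of chromosome 10 (97479609 to 97682454). *Ecm2*, *Aspn*, *Omd* and *Ogn* lay within 120 kb of chromosome 13 (49504810 to 49624501), and *Optc*, *Prelp* and *Fmod* within 151 kb of chromosome 1 (133897199 to 134048277). *Bgn* stood alone on chromosome X (73483602 to 73495933). The genes on chromosome 13 overlap *Cenpp* on the opposite strand, and the strand counted is not given in the sources used here. The RefSeq table of promoters (GRCm38.p6) held 7 of the 9 members, all but *Dcn* and *Lum*. The 250 bases before the start are shown for *Bgn* and *Aspn*, whose levels followed each other across fibroblast sub-clusters although they lie on different chromosomes, and for *Ogn*, a neighbour of *Aspn*. They span chrX:73483351-73483600, chr13:49544193-49544442 and chr13:49607765-49608014 on the plus strand, 5′ to 3′, and capitals mark matches to TATAAA on either strand.
Bgn: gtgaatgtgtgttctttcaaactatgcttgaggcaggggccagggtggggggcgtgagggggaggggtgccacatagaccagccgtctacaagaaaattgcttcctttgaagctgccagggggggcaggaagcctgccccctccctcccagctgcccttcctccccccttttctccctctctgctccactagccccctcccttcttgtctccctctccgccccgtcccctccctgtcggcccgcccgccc
Aspn: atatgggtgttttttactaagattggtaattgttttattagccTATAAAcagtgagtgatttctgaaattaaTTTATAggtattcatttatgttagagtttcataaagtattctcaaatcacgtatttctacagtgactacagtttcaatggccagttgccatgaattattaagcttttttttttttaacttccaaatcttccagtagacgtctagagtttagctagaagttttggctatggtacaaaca
Ogn: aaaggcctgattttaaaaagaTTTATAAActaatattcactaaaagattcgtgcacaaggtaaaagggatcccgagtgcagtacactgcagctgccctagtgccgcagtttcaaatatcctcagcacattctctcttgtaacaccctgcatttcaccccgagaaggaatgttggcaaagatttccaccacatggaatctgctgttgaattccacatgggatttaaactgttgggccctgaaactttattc
The *Aspn* window held 2 separate matches to TATAAA and the *Ogn* window 2 that overlap, while the *Bgn* window held none. They were far from the start, with 201 and 172 bases between match and start for *Aspn* and 223 and 221 for *Ogn*. A match was present in 12.4% of the 32851 windows of this length in the table. The GLI motif GACCACCCA and the AP-1 motif TGANTCA, searched on both strands, were found before none of the 7 members, and were present in 0.225% and 6.75% of all windows. GC content was 64.4% for *Bgn*, 30% for *Aspn* and 42% for *Ogn*, against a median of 52.4% over all windows.

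After filtering, 2856 control cells and 1792 *SM22-SmoM2* cells remained, with medians of 8608 and 8838 UMIs per cell. Clusters made without the members and their related genes were named from markers, and 1046 control and 1098 *SM22-SmoM2* cells were kept as fibroblasts. All 10 fibroblast markers, 4 of them collagen genes, were present in both, and summed to 66580 CPM in control against 44966 CPM in *SM22-SmoM2* fibroblasts. Markers of other lineages in these fibroblasts summed to between 7.78 and 169 CPM in control and between 6.57 and 177 CPM in *SM22-SmoM2*. A further 62 control and 2 *SM22-SmoM2* cells were left out, because markers of another lineage led their sub-clusters. The Hh genes separated the libraries, with *Ptch1* at 12.3 CPM in control against 147 CPM in *SM22-SmoM2* fibroblasts and 5 of 5 Hh genes at least 1.5-fold higher in *SM22-SmoM2*. Cells with UMIs of both *Xist* and a Y-linked gene, as doublets of the 2 sexes would have, made up 5.01% of control and 2.51% of *SM22-SmoM2* cells. The barcode list deposited is not matched to the cells, so barcodes shared by the libraries could not be counted.

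SLRP mRNA was found mainly in fibroblasts, with *Bgn*, *Aspn* and *Fmod* also present in muscle-like cells. The 9 members together made up 16818 CPM of control and 7740 CPM of *SM22-SmoM2* fibroblasts, against 873 and 903 CPM of the other lineages summed. Fibroblasts held 90.4% of the SLRP UMIs of the control library and 95.1% of those of the *SM22-SmoM2* library. All 9 members were at least 1.5-fold higher in fibroblasts than in the other lineages in control, where 15.9% of 12384 genes were. So were all 8 members that reached 50 UMIs in *SM22-SmoM2*, against 14.4% of 11313 genes.

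*Omd*, *Lum* and *Dcn* had the widest gap between control fibroblasts and other lineages, and *Fmod* the narrowest. *Omd* (osteomodulin, a keratan sulfate SLRP known from bone) stood at 95.1 CPM in fibroblasts and 1.33 CPM in other lineages of control, and at 69.8 and 2.83 CPM in *SM22-SmoM2*. *Lum* (lumican, a regulator of collagen fibrils) stood at 4291 CPM against 69.4 CPM in control, and at 1463 against 71.1 CPM in *SM22-SmoM2*. *Fmod* (fibromodulin, which binds collagen close to where lumican does) stood at 14.9 against 7.48 CPM, and at 11.9 against 3.96 CPM.

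The muscle-like cells, 271 in control and 94 in *SM22-SmoM2* and led by *Rgs5*, *Higd1b* and *Cox4i2*, carried more *Bgn* and *Aspn* than *Dcn*. *Bgn* (biglycan, the closest relative of decorin) reached 1507 CPM there in control and 1702 CPM in *SM22-SmoM2*, against 2616 and 1775 CPM in fibroblasts. *Aspn* (asporin, whose core lacks the usual attachment site for a sugar chain) reached 742 and 933 CPM, against 2141 and 1072 CPM in fibroblasts. Both genes were thus lower in muscle-like cells than in fibroblasts, except that the *Bgn* intervals overlapped in *SM22-SmoM2* (1593 to 1816 and 1751 to 1798 CPM). *Fmod* was higher in muscle-like cells than in all fibroblasts of control, at 30.6 CPM (23.2 to 39.6) against 14.9 CPM (12.9 to 17.1). A control fibroblast sub-cluster described below, led by *Mmp3*, had more, at 58.9 CPM. In *SM22-SmoM2* the *Fmod* intervals overlapped, at 16.8 CPM (7.70 to 32.0) and 11.9 CPM (10.1 to 14.0). *Dcn* (decorin, which carries a single chain) was at 277 and 237.5 CPM in muscle-like cells, against 7303 and 3017 CPM in fibroblasts.

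Endothelial and Schwann cells carried mostly *Bgn*. *Bgn* was at 388.8 and 470.5 CPM in endothelial cells of control and *SM22-SmoM2*, and at 373 and 342 CPM in Schwann cells. *Dcn* was at 93.0 and 69.0 CPM in endothelial and at 82.2 and 62.9 CPM in Schwann cells. With every cell thinned to 2500 UMIs, *Dcn* was detected in 99.5% of control and 92.7% of *SM22-SmoM2* fibroblasts (99.7% and 98.1% unthinned, at median depths of 12703.5 and 10947.5 UMIs). Endothelial cells showed *Dcn* in 18.5% and 9.26% (47.0% and 30.4% unthinned, at median depths of 9424 and 7262 UMIs). At equal depth *Bgn* was detected in 50.7% of control and 58.9% of *SM22-SmoM2* endothelial cells, above the share that *Dcn* gave there.

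The ratio of *Bgn* to *Dcn* set some lineages, but not all, apart from fibroblasts. Per 100 *Dcn* UMIs there were 35.8 *Bgn* UMIs in control fibroblasts and 58.8 in *SM22-SmoM2* fibroblasts. In endothelial cells there were 418 and 682 and in Schwann cells 454 and 543, so *Bgn* was not in the fibroblast ratio there. Muscle-like cells had 543.5 and 716.5, in the range of those lineages or above it. Immune cells had 56.6 and 91.5, closer to fibroblasts. *Lum* per 100 *Dcn* UMIs spread less, from 24.6 in muscle-like to 78.6 in Schwann cells of control, with fibroblasts at 58.8, and from 40.2 in muscle-like to 85.0 in Schwann cells of *SM22-SmoM2*, with fibroblasts at 48.5.

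Immune cells, 82 and 33 in number, had *Dcn* at 457 and 517 CPM and *Bgn* at 258.5 and 473 CPM. At equal depth *Dcn* was detected in 17.1% (9.66 to 27.0%) and 24.2% (11.1 to 42.3%) of them. In both libraries these intervals overlapped those of endothelial cells, 15.7 to 21.6% and 6.08 to 13.4%. Fibroblast markers in the immune cells summed to 4429 and 8702 CPM. The same markers summed to 8227 and 8595 CPM in muscle-like, 9318 and 8922 CPM in Schwann and 1823 and 1849 CPM in endothelial cells. In none of these lineages was the part of these markers' source in the SLRP levels tested.

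**Figure D1:**
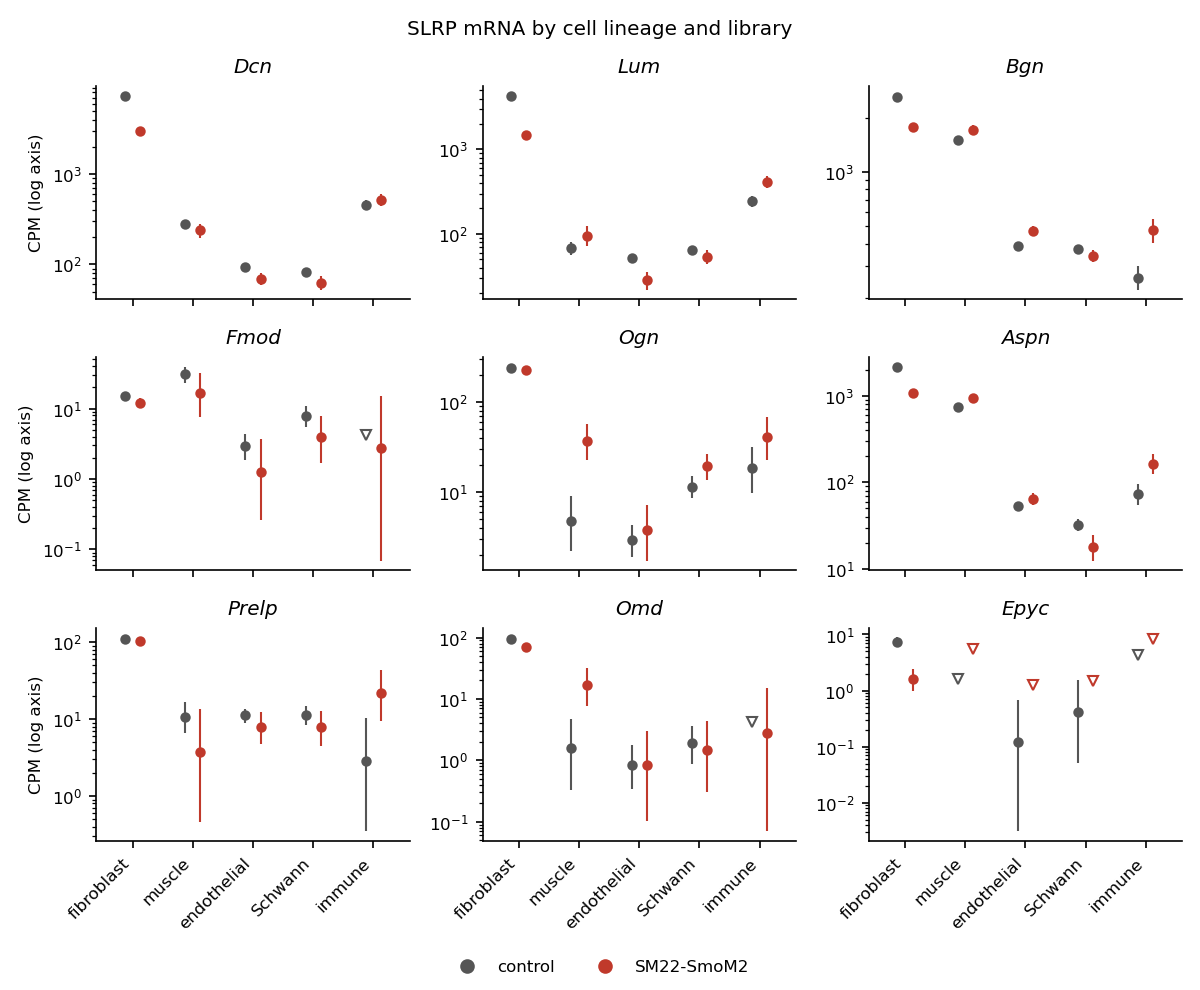
CPM of each member (vertical, log axis with its own range per gene) in 5 lineages (horizontal), in the control library (grey) and the *SM22-SmoM2* library (red); points are the summed cells of 1 library, bars the 95% counting interval, and open triangles the level of 3 UMIs where none was counted. *Dcn* lies at 7303 CPM in control fibroblasts and 277 CPM in control muscle-like cells, where *Bgn*, *Aspn* and *Fmod* stay high, and the red fibroblast points of *Dcn*, *Lum* and *Aspn* lie under the grey ones.

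Between the libraries' fibroblasts, some SLRPs were lower in *SM22-SmoM2* and none passed the limit upwards. Together they were at 16818 CPM in control against 7740 CPM in *SM22-SmoM2* fibroblasts, a log2 ratio of -1.12 (-1.13 to -1.11). Of the 9 members, 4 were at least 1.5-fold lower in *SM22-SmoM2*, where 12.2% of 11494 genes were, and 0 were at least 1.5-fold higher, where 11.9% were. The median log2 ratio was -0.56 over the members and -0.07 over all genes.

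*Dcn*, *Lum* and *Aspn* made up most of the difference. *Dcn* was at 7303 CPM in control against 3017 CPM in *SM22-SmoM2* fibroblasts, 2.42-fold lower. *Lum* was at 4291 and 1463 CPM, 2.93-fold lower. *Aspn* was at 2141 and 1072 CPM, with a log2 ratio of -0.998 (-1.03 to -0.97). For these 3 the counting intervals of the libraries were far apart. *Bgn* was close to the 1.5-fold limit, at 2616 and 1775 CPM and 1.47-fold lower. It passed the limit in 4 of 19 alternatives, and its log2 ratio ran from -1.17 in cells called female to -0.19 in sub-clusters shared by the libraries, against -0.56 over all fibroblasts.

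*Epyc* (epiphycan, known from growth plate cartilage) had the lowest log2 ratio, -2.18 (-2.95 to -1.48), on few molecules. It had 100 UMIs in control and 20 UMIs in *SM22-SmoM2* fibroblasts. Of the control UMIs, 96 lay in 7 cells of a sub-cluster of 61 cells led by *Thbs4*, *Cst6* and *Trf*. All 20 *SM22-SmoM2* UMIs lay in the 3 cells of that library in the same sub-cluster. Within the sub-cluster *Epyc* was at 141 CPM (114 to 172) in control and 1166 CPM (712 to 1801) in those 3 cells, so the direction over all fibroblasts was not that within the sub-cluster. However, 1 cell held 13 of the 20 UMIs, and 1 control cell 26 of the 96. The counting intervals do not cover such spread between cells.

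The other members were within the 1.5-fold limit over all fibroblasts. *Ogn* (osteoglycin, also called mimecan) was at 240 and 227 CPM, a log2 ratio of -0.08 (-0.16 to -0.01). *Prelp*, which can bind both collagen and basement membrane perlecan, was at 110 and 104 CPM, a log2 ratio of -0.08 (-0.19 to 0.03). *Fmod* was at 14.9 and 11.9 CPM. *Omd* was at 95.1 and 69.8 CPM, a log2 ratio of -0.45, but passed the limit in 5 of 19 alternatives. It was at -1.36 in shared sub-clusters, -0.90 in cells called female and -0.82 without cycling sub-clusters. The direction of *Prelp* differed with the sex called from *Xist* and Y-linked UMIs. In the 198 control and 48 *SM22-SmoM2* fibroblasts called female it was at 48.1 and 199 CPM, and in the 633 and 815 called male at 131 and 102 CPM.

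The difference was also present cell by cell. With each fibroblast thinned to 2500 UMIs, the median cell held 39 SLRP UMIs in control and 16 in *SM22-SmoM2*, and the 10th percentile was 22 and 3. Fibroblasts without a *Lum* UMI at that depth were 1.91% of control and 31.4% of *SM22-SmoM2* cells. Those without an *Aspn* UMI were 12.05% and 36.9%, and those without a *Dcn* UMI 0.478% and 7.29%. Cells with none of a member were thus most frequent for *Aspn* and *Lum* in *SM22-SmoM2*, among these 3 genes. Before thinning, 99.6% and 84.0% of fibroblasts held a *Lum* UMI.

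**Figure D2:**
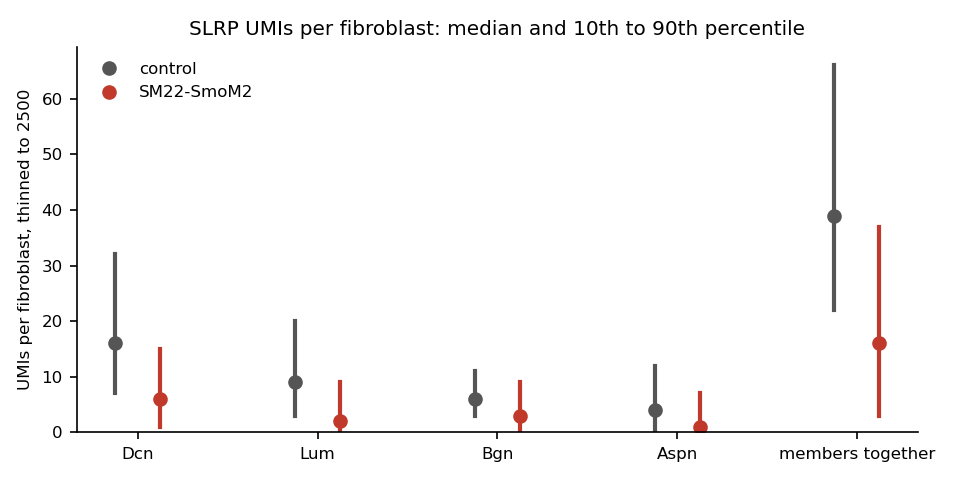
SLRP UMIs per fibroblast after each cell was thinned to 2500 UMIs (vertical), for 4 members and the 9 together (horizontal); dots are medians and lines run from the 10th to the 90th percentile of 1046 control (grey) and 1098 *SM22-SmoM2* (red) cells of 1 library each. The median of the 9 together is 39 in control and 16 in *SM22-SmoM2*. The red lines of *Lum* and *Bgn* and both lines of *Aspn* reach 0.

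Members varied together from cell to cell to a different degree in the libraries. On log2(UMIs + 1) of the thinned cells, *Dcn* and *Lum* had a Pearson r of 0.56 over 1046 control cells and 0.53 over 1098 *SM22-SmoM2* cells. *Dcn* and *Aspn* had r of -0.05 and 0.51, and *Dcn* and *Bgn* -0.02 and 0.46. The cells of a library share its depth and its mixture of sub-clusters, and each r describes 1 library.

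Fibroblast sub-clusters differed in the members they carried. The fibroblasts fell into 12 kept sub-clusters, called here by their leading genes, of which 8 in each library had at least 30 cells. The 9 members together ranged from 12601 to 33725 CPM over those of control and from 1494 to 15672 CPM over those of *SM22-SmoM2*.

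The 3 members on chromosome 10 peaked in the *Thbs4*, *Cst6*, *Trf* sub-cluster of control. *Dcn* was at 18558 CPM there, *Lum* at 13074 CPM and *Epyc* at 141 CPM, each the highest control value, while *Kera*, which lies between *Lum* and *Epyc*, was at 2.94 CPM (2 UMIs). *Bgn* (1456 CPM), *Aspn* (278 CPM) and *Omd* (4.41 CPM) were at their lowest control values in the same cells. *Fmod* had 0 UMIs, where 3 UMIs would be 4.41 CPM.

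The *Mmp3*, *Mmp13*, *Ctla2a* sub-cluster, with 225 control and 120 *SM22-SmoM2* cells, held the most *Bgn*, *Aspn* and *Fmod*. *Bgn* was at 3500 CPM in control against 3524 CPM in *SM22-SmoM2*, and *Aspn* at 3102 and 2340 CPM. *Fmod* was at 58.9 and 47.3 CPM, while the other groups of at least 30 cells had 14.2 CPM or less. The sub-cluster held 163 of the 205 *Fmod* UMIs of control fibroblasts and 68 of the 149 of *SM22-SmoM2* fibroblasts. *Omd* was at its highest control level there too, 208 CPM, but at 74.5 CPM in *SM22-SmoM2*.

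*Prelp* peaked in other cells in both libraries, and *Ogn* in control alone. In control *Ogn* was highest, at 685 CPM, in the sub-cluster led by *Fbln7*, *Eln* and *Angptl1*. In *SM22-SmoM2* it was highest in the *Mmp3*, *Mmp13*, *Ctla2a* sub-cluster, at 537 CPM. *Prelp* was highest in the *Nov*, *Eln*, *Sfrp2* sub-cluster of control, at 213 CPM, and in the *Wif1*, *Egfl6*, *Penk* sub-cluster of *SM22-SmoM2*, at 200 CPM. *Prelp* was lowest in both libraries in the *Crabp1*, *Igfbp2*, *Prss35* sub-cluster, at 13.02 and 16.03 CPM, a sub-cluster in which *Omd* was at 166.5 and 84.8 CPM.

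The *SM22-SmoM2* sub-clusters with the most DP markers raised had the least SLRP mRNA. In 45 cells led by *a*, *Ibsp* and *Cd24a*, with 14 of 14 DP markers raised, the 9 members together were at 1494 CPM. *Dcn* was at 732 CPM there, *Lum* at 266, *Bgn* at 397 and *Aspn* at 55.8 CPM, and *Ogn* had 1 UMI. Their median depth was 4425 UMIs per cell, against 10947.5 over all fibroblasts of that library, and its part in these levels was not tested. In 155 cells led by *Egfl6*, *Wif1* and *Sox11*, with 6 of 14 DP markers raised and a median depth of 8624, the 9 together were at 2025 CPM, *Dcn* at 813 and *Lum* at 307.5 CPM. These 155 cells also had 5 of 6 cycling markers raised, against 0 in the 45 cells, and the part of cycling in their levels was not tested. Without the 45 cells the log2 ratio of the 9 together between the libraries was -1.09.

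**Figure D3:**
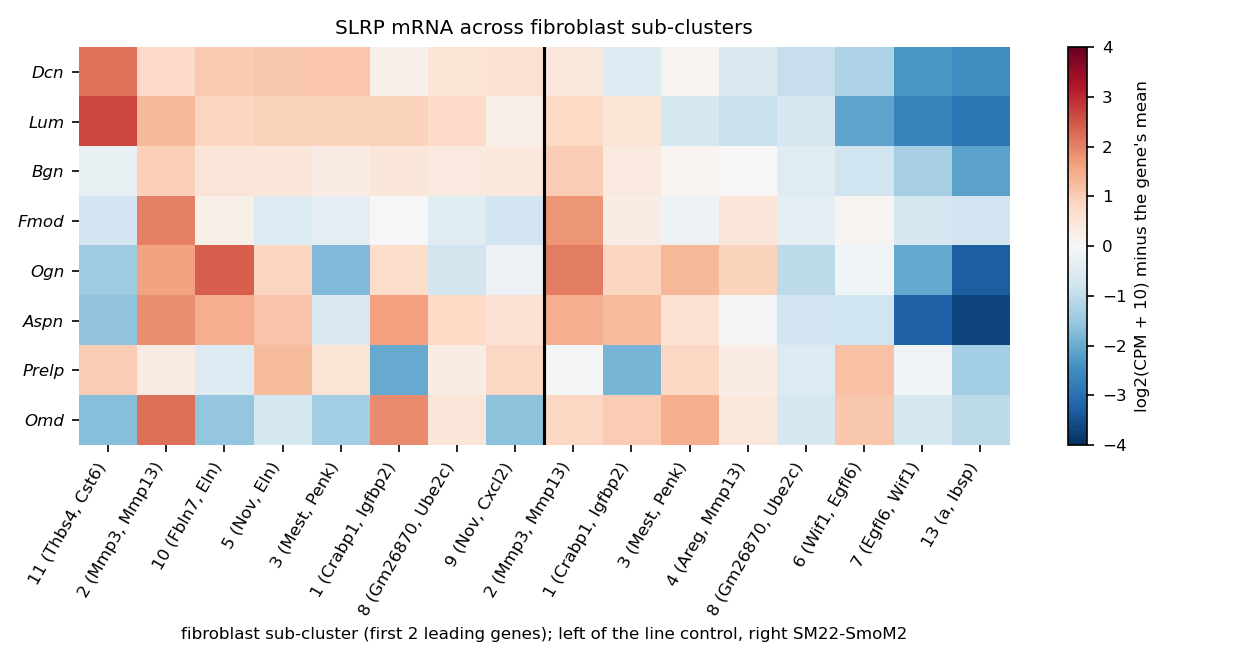
Levels of 8 members (rows; *Epyc* had too few UMIs) in the 16 groups of at least 30 fibroblasts (columns, by sub-cluster, control left and *SM22-SmoM2* right of the line, each ordered by the level of the 9 together), as log2(CPM + 10) minus the gene's mean over the groups. Red is above and blue below that mean: *Dcn* (18558 CPM) and *Lum* (13074 CPM) are deepest red in the *Thbs4*, *Cst6* column, *Fmod* is red in both *Mmp3*, *Mmp13* columns, and the *a*, *Ibsp* column is blue for all 8.

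Over these 16 groups, which come from 2 libraries, *Lum* was the member most like *Dcn* and *Aspn* the one most like *Bgn*, both with r = 0.94. On chromosome 13, *Ogn* followed *Aspn* with r = 0.87 and *Omd* followed *Aspn* with r = 0.48. *Prelp* had r between -0.21 and 0.39 with the other members compared. Outside the family, the genes most like *Dcn* were *Ifngr1* (0.95), *Mmp2* and the collagen lysyl hydroxylase gene *Plod1* (0.94 each). Those most like *Bgn* were *Ly6e* (0.94), *Sparc* and *Chpf* (0.93 each), the last of which acts in building chondroitin chains. *Ly6e* was also most like *Aspn* (0.93), *Itm2a* most like *Lum* (0.94), *Tor3a* most like *Ogn* (0.90), *Mpdz* most like *Prelp* (0.82), and *Lgr5*, a receptor for R-spondins, most like *Omd* (0.93).

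The difference between the libraries was narrower over the sub-clusters that both filled. The *Areg*-, *Wif1*-, *Egfl6*- and *a*-led sub-clusters, with 203, 152, 155 and 45 *SM22-SmoM2* cells, held 7, 10, 1 and 0 control cells. A different mixture of sub-clusters and a change within cells therefore cannot be told apart. In the 3 sub-clusters to which both libraries gave 50 cells or more, 569 control and 313 *SM22-SmoM2* cells, the log2 ratio of the 9 together was -0.52, against -1.12 over all fibroblasts. *Dcn* was at -0.64 and *Lum* at -0.60 in these cells. Taken singly, the *Crabp1*, *Igfbp2*, *Prss35* sub-cluster fell from 14168 CPM of control to 10631 (log2 ratio -0.41, -0.44 to -0.39). The *Mmp3*, *Mmp13*, *Ctla2a* sub-cluster had 19327 and 15672 CPM (-0.30, -0.32 to -0.28). The cycling sub-cluster led by *Gm26870*, *Ube2c* and *Ccnb1* had 13545 and 5338 CPM (-1.34, -1.39 to -1.30), the widest gap of the 3. *Ptch1* UMIs were present in 10.7%, 15.8% and 74.65% of the *SM22-SmoM2* cells of these 3 sub-clusters, in the order given.

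Single members were not all lower in *SM22-SmoM2* within these 3 sub-clusters. *Dcn* was lower in *SM22-SmoM2* in all 3 sub-clusters, at 4748 and 2902 CPM, 6999 and 5530 CPM, and 6024 and 2164 CPM in control and *SM22-SmoM2*. *Omd* had the lowest log2 ratio in the *Crabp1*- and *Mmp3*-led sub-clusters, -0.97 and -1.48. *Bgn* was level in the *Mmp3*-led sub-cluster, with a log2 ratio of 0.01 (-0.04 to 0.06), and *Ogn* was higher there in *SM22-SmoM2*, at 392.4 and 537 CPM (0.45, 0.32 to 0.59).

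In a further sub-cluster, led by *Mest*, *Penk* and *Cldn1* and singled out after its values were seen, members moved in opposite directions. It held 36 control and 222 *SM22-SmoM2* cells, of which 16 and 190 had a *Ptch1* UMI. *Ogn* was at 28.9 CPM (10 UMIs) in control and 318 CPM in *SM22-SmoM2*, a log2 ratio of 3.46 (2.58 to 4.53). *Omd* was at 8.66 CPM (3 UMIs) and 119 CPM, a log2 ratio of 3.78 (2.22 to 6.07). *Aspn*, their neighbour on chromosome 13, was also higher, at 571.5 and 1292 CPM. *Ecm2*, the SLRP gene beside *Aspn* but outside the 9, was not, at 101 CPM (70.4 to 140.5) and 73.0 CPM (62.9 to 84.15). *Dcn* was lower in *SM22-SmoM2*, at 8910 and 4438 CPM, as was *Lum*, at 3888 and 1244 CPM. The 9 together were at 15782 and 9463 CPM, a log2 ratio of -0.74 (-0.78 to -0.70).

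*Ptch1*, the Hh receptor that the pathway itself induces, gave a comparison within each library. *Ptch1* UMIs were present in 105 of 1046 control fibroblasts (10.0%) and 640 of 1098 *SM22-SmoM2* fibroblasts (58.3%). Cells with *Ptch1* UMIs were deeper, with medians of 13451 UMIs with and 12702 without in control and of 11298 and 10218 in *SM22-SmoM2*.

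In *SM22-SmoM2* fibroblasts most SLRPs were lower in cells with *Ptch1* UMIs. Of the 8 members with at least 50 UMIs, 5 were at least 1.5-fold lower, where 5.32% of 10041 genes were, and 1 was at least 1.5-fold higher, where 11.7% were. The 9 together were at 10057 CPM without and 6274 CPM with *Ptch1* UMIs, a log2 ratio of -0.68 (-0.70 to -0.66). All genes had a median log2 ratio of 0.13, and relative to it the 9 together were at -0.81. On that relative scale 7.63% of genes were lower and 7.75% higher, and the members' counts were 5 and 1.

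*Fmod*, *Lum* and *Aspn* had the lowest ratios. *Fmod* was at 19.0 CPM without and 7.46 CPM with *Ptch1* UMIs, a log2 ratio of -1.35 (-1.85 to -0.86). *Lum* was at 2260 and 959 CPM (-1.24), and *Aspn* at 1580 and 750 CPM (-1.07). All 3 counting intervals lay clear of 0. *Ogn*, at 297 and 182 CPM (-0.71), and *Bgn*, at 2284 and 1452 CPM (-0.65), passed the limit as well.

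*Dcn* and *Omd* stayed within the limit and *Prelp* was the exception in direction. *Dcn* was at 3470 CPM without and 2730 CPM with *Ptch1* UMIs (-0.35), and *Omd* at 72.2 and 68.3 CPM (-0.08, -0.28 to 0.12). *Prelp* was at 73.8 and 123 CPM, a log2 ratio of 0.73 (0.56 to 0.91). Among the shallowest cells, however, the *Prelp* ratio was 0.0035. With every cell thinned to 2500 UMIs, *Ptch1* included, *Prelp* was at 0.48 and *Dcn* at -0.06, and 2 members were past the limit, *Lum* (-0.81) and *Aspn* (-0.74), while *Fmod* had under 50 UMIs and was not evaluated.

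Within single sub-clusters the *Ptch1* difference was narrower. In the 4 *SM22-SmoM2* sub-clusters with at least 30 cells on each side, the 9 together were lower with *Ptch1* UMIs in all 4, with log2 ratios from -0.49 to -0.09. *Lum* was lower in 3 of them, and its ratios ran from -0.81 to 0.46, while those of *Prelp* ran from -0.79 to 0.67. *Fmod*, on few UMIs, was lower in 1 and higher in 2, with ratios from -0.305 to 1.39. Its counting intervals were clear of 0 in none. Cells without *Ptch1* UMIs held only 1 to 15 *Fmod* UMIs per sub-cluster, so these splits cannot decide whether its drop holds within them. The *Mmp3*-led sub-cluster, with 68 of the 149 *Fmod* UMIs, had 19 cells with *Ptch1* UMIs and was not among them. *Ptch1* UMIs were present in 10.7% and 15.8% of the *SM22-SmoM2* cells of the *Crabp1*- and *Mmp3*-led sub-clusters, the richest in SLRP mRNA in that library. In the others with at least 30 cells the share ran from 58.1% to 85.6%.

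Control fibroblasts gave another pattern. There 3 members were at least 1.5-fold lower with *Ptch1* UMIs, where 8.91% of 10204 genes were, and 0 were higher, where 9.08% were. These were the 3 members on chromosome 13. *Ogn* was at 252 CPM without and 137 CPM with *Ptch1* UMIs (-0.88), *Aspn* at 2236 and 1319 CPM (-0.76), and *Omd* at 101 and 46.4 CPM (-1.12). All 3 kept this direction in 23 alternatives, which include leaving out the *Thbs4*, *Cst6*, *Trf* sub-cluster. The *Mest*-led sub-cluster held 16 of the 105 cells and was low in all 3 in control, at 28.9, 571.5 and 8.66 CPM. Its part was not tested, and no control sub-cluster had 30 cells on each side for a split within it. *Dcn*, at 7174 and 8425 CPM (0.23), and *Lum*, at 4204 and 5041 CPM (0.26), were slightly higher with *Ptch1* UMIs. That direction rested on the *Thbs4*, *Cst6*, *Trf* sub-cluster, which held 17 of the 105 cells, and without it the log2 ratios were -0.09 for *Dcn* and -0.09 for *Lum*.

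**Figure D4:**
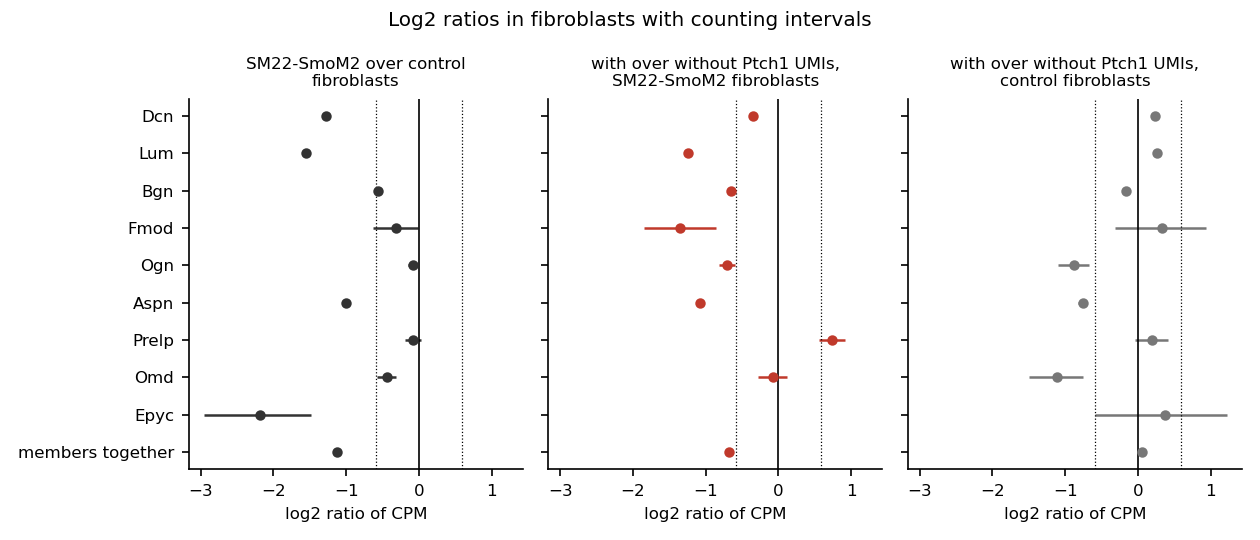
Log2 ratios of CPM (horizontal) for the 9 members and their sum (vertical): *SM22-SmoM2* over control fibroblasts (left), and fibroblasts with over without *Ptch1* UMIs in *SM22-SmoM2* (middle, without *Epyc*, which had 20 UMIs) and in control (right). Points are summed cells of 1 library against another or of 1 group of cells against another, bars the 95% counting interval, dotted lines mark 1.5-fold, and *Prelp* in the middle panel (0.73) is the point past the right-hand dotted line.

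A higher *Ptch1* count did not always go with a wider difference. In *SM22-SmoM2* fibroblasts *Lum* was at 2260 CPM with 0 *Ptch1* UMIs, 1057 CPM with 1, 924.5 CPM with 2 to 3 and 908 CPM with 4 or more. Most of the difference in *Lum* lay between 0 and 1. *Dcn* did not follow an order, at 3470, 2431, 2537 and 3255 CPM over the same steps. In control, *Aspn* was at 2236, 1559, 1152 and 192 CPM and *Dcn* at 7174, 7175, 10085 and 11639.5 CPM, the last step holding 7 cells.

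**Figure D5:**
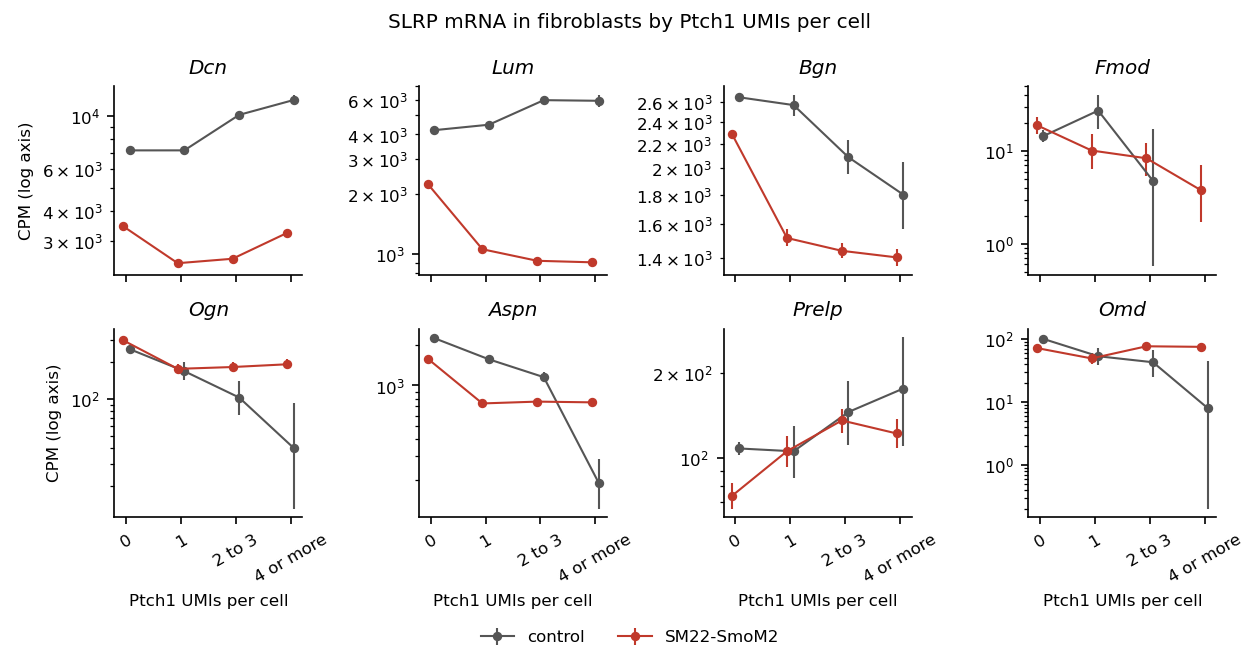
CPM of 8 members (vertical, log axis with its own range per gene) in fibroblasts with 0, 1, 2 to 3 and 4 or more *Ptch1* UMIs (horizontal), control in grey and *SM22-SmoM2* in red; points are summed cells of 1 library, bars 95% counting intervals, and a group with no UMI is not drawn. The lines of *Dcn* start at 7174 and 3470 CPM and end at 11639.5 and 3255 CPM, and the control lines of *Bgn*, *Ogn*, *Aspn* and *Omd* fall at every step.

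The libraries differed in fibroblasts without *Ptch1* UMIs too, but such cells were not shown to lack Hh activity. In *SM22-SmoM2* they include 85, 56, 38 and 32 cells of the *Areg*-, *Egfl6*-, *Wif1*- and *Mest*-led sub-clusters. Those sub-clusters had 4 or 5 of 5 Hh markers raised. In the 941 control and 458 *SM22-SmoM2* cells without *Ptch1* UMIs, *Dcn* was at 7174 and 3470 CPM and *Lum* at 4204 and 2260 CPM. The log2 ratios were -1.05 and -0.90. *Fmod* and *Ogn* were higher in *SM22-SmoM2* there, at 14.5 and 19.0 CPM (0.39, 0.01 to 0.76) and at 252 and 297 CPM (0.24, 0.15 to 0.33). In the 105 and 640 cells with *Ptch1* UMIs, *Dcn* was at 8425 and 2730 CPM and *Lum* at 5041 and 959 CPM, log2 ratios of -1.63 and -2.39. Both gaps were wider in the cells with *Ptch1* UMIs.

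Genes related to the SLRPs had negative median log2 ratios in each of the 5 lists. Of 9 other SLRP genes, 7 had at least 50 UMIs, and 4 of these were at least 1.5-fold lower and 0 higher, with a median log2 ratio of -0.70. The 4 were *Kera* (keratocan), at 23.1 CPM in control against 14.2 CPM in *SM22-SmoM2*, *Podn* at 30.2 and 16.2 CPM, *Podnl1* at 14.8 and 6.89 CPM, and *Optc* at 2.84 and 1.68 CPM. *Optc* rested on 39 and 21 UMIs, and the interval of its log2 ratio included 0 (-0.75, -1.59 to 0.05). Of the genes that build and sulfate the sugar chains, 13 of 28 were lower and 0 higher, with a median of -0.55. *Xylt1*, which adds the first sugar to the core protein, was at 11.6 and 4.49 CPM, and *Chpf* at 169 and 77.3 CPM.

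Of the collagens that SLRPs bind, 2 of 11 were lower and 0 higher, with a median of -0.47. They were *Col3a1*, at 19769 CPM in control against 12756.5 CPM in *SM22-SmoM2*, and *Col5a1*, at 742 and 485 CPM. This share is near the 12.2% of all genes. With over without *Ptch1* UMIs in *SM22-SmoM2*, 8 of 10 collagens were lower, with a median of -0.84, where 5.32% of all genes were lower and the median was 0.13. By that split 3 of 6 other SLRP genes, 8 of 27 genes of the sugar chains, 4 of 14 processing genes and 3 of 16 other proteoglycans were lower. In the same order 0, 1, 1 and 4 genes of these lists were higher, where 11.7% of all genes were. Of the processing enzymes, receptors and ligands, 5 of 15 were lower and 1 higher between the libraries, with a median of -0.30. The lower ones include the metalloproteinases *Mmp2*, at 865 and 408 CPM, and *Mmp14*, at 869 and 443 CPM, and the higher one was *Adamts4*, an aggrecanase, at 86.0 and 134 CPM.

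Other proteoglycans ran both ways, with 8 of 17 lower, 2 higher and a median of -0.51. *Sdc2* (syndecan 2) was at 458.5 CPM in control against 133 CPM in *SM22-SmoM2*, and *Prg4* (lubricin) at 6.76 and 1.04 CPM. *Gpc3*, a cell-surface heparan sulfate proteoglycan known to bind Hh ligands, was higher, at 258 and 702.5 CPM, as was *Srgn* (serglycin), at 6.55 and 16.35 CPM. All counts between the libraries stand beside the 12.2% of genes that were lower and the 11.9% that were higher.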

How the data were processed

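Single-cell RNA sequencing of sorted Tomato+ dermal cells was re-analysed for 1 control and 1 *SM22-SmoM2* library. The authors deposited raw UMI counts for every gene in every cell, without normalization. They were made with Cell Ranger from 10x 3′ v2 libraries aligned to mm10 (GRCm38); the versions and the strand counted are not given in the sources used here. Epidermis was removed in EDTA for a time that the paper and the labels give differently.

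A cell was kept with 200 or more genes and at most 10% of UMIs from mitochondrial genes. K-means (50 starts, 20 components, 2000 variable genes) was run over all cells (K = 20) and then over fibroblasts (K = 15), leaving out 108 genes: the members, the related lists and Hh genes. Clusters were named when 3 markers reached 10 CPM and 1.5 times the median of clusters. A fibroblast sub-cluster was left out when its top 10 genes held more markers of some other lineage than of fibroblasts. UMIs were summed per group, and log2 ratios were taken of CPM for genes with at least 50 UMIs over both groups; 3 UMIs replaced a count of 0. Intervals are exact Poisson, binomial or conditional, at 95%. A call is a 1.5-fold difference. Python 3.11.15, scanpy 1.11.5 and scikit-learn 1.9.0 were used, and the steps were tested on simulated data. With 1 library per genotype there is no replicate, no test and no p-value.

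All 9 members are named. Genes alike were the 3 with the highest Pearson r of log2(CPM + 10) over groups of at least 30 cells, for members with at least 500 UMIs. Related genes named are among the 3 highest or 3 lowest of their list, apart from *Kera*, named after its value was seen. Members and lists were chosen with earlier results of these data known. Doublets were not removed, except in an alternative with Scrublet (expected rate 5%), which marked 12 control and 13 *SM22-SmoM2* cells. Other alternatives changed the mitochondrial filter, a ceiling of 30000 UMIs, the clustering, thinning, weighting of cells, scaling, the minimum of UMIs, the *Ptch1* threshold, depth, sex and the sub-clusters kept.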

Additional observations from a re-analysis of the deposited data

Results flagged for a closer look

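Some members differed between the 2 genotypes in the direction of the *Ptch1* split, with both counting intervals clear of 0. The log2 ratio with over without *Ptch1* UMIs was -0.35 in *SM22-SmoM2* and 0.23 in control fibroblasts for *Dcn*, a difference of -0.58. For *Lum* the ratios were -1.24 and 0.26, a difference of -1.50. For the 9 members together they were -0.68 and 0.06, a difference of -0.74. The direction in control did not hold without the *Thbs4*, *Cst6*, *Trf* sub-cluster, since *Dcn*, *Lum* and the 9 together were then at -0.09, -0.09 and -0.17.

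Another 2 members differed in the direction of *SM22-SmoM2* over control between cells with and without *Ptch1* UMIs. For *Fmod* the log2 ratio was -1.29 with and 0.39 without *Ptch1* UMIs, a difference of -1.68, on 57 and 26 UMIs with and 92 and 179 without in *SM22-SmoM2* and control. For *Omd* it was 0.56 with and -0.48 without, a difference of 1.04, on 522 and 66 UMIs with and 349 and 1241 without. Of the 105 control cells with *Ptch1* UMIs, 16 and 17 lay in the *Mest*- and *Thbs4*-led sub-clusters. Control *Omd* was at 8.66 and 4.41 CPM there, and the part of these sub-clusters in the *Omd* values was not tested. With 1 library per genotype these differences were not tested.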

How the results depend on the processing

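The members at least 1.5-fold lower in *SM22-SmoM2* than in control fibroblasts numbered 4 to 6 under all 19 alternatives, and *Dcn*, *Lum* and *Aspn* were past that limit in each. With cells called female alone 1 member was higher (*Prelp*, log2 ratio 2.05). The log2 ratio of the 9 together ran from -1.35 in cells called female to -0.52 in shared sub-clusters. Alternatives chosen after seeing the data gave -1.05 without the *Thbs4*, *Cst6*, *Trf* sub-cluster and -1.09 without the sub-cluster with the highest *Lef1*. Another gave -0.89 without the sub-clusters with at least 3 raised cycling markers. These held 347 control and 383 *SM22-SmoM2* fibroblasts, among them those of the *Nov*-, *Wif1*- and *Egfl6*-led sub-clusters. In the *Ptch1* split of *SM22-SmoM2*, 2 members were lower when thinned and 3 without cycling sub-clusters, where *Bgn* was at -0.55 and *Ogn* at -0.49. When thinned, *Fmod* fell under 50 UMIs and was not evaluated, and it was past the limit in all 20 alternatives in which it was. None of these alternatives split the cells within single sub-clusters. There 0 were higher when thinned, 0 by the mean of per-cell CPM, 0 among the shallowest cells by UMIs, and 2 at a minimum of 10 UMIs, which lets *Epyc* enter. The 9 together ran from -1.36 in cells called female to -0.37 when thinned, where *Bgn* and *Ogn* were at -0.48. In the split of control, 5 were lower among cells of middle depth. There 2 were higher among cells called male, and 1 each when thinned, among cells called female, with at least 2 *Ptch1* UMIs, among the deepest cells and without cycling sub-clusters. The control ratio of the 9 together ran from -0.32 to 0.23. The other counts stayed within 1.5 times, and for those that did not the cause was not tested beyond what is said here. Relative to the median of all genes, 50.4% of calls in the *SM22-SmoM2* split were higher, against 68.8%. No paired analysis was possible because each genotype has 1 library, and for the same reason no library could be left out. Depth limits *Fmod* and *Epyc* most, with 354 and 120 fibroblast UMIs.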

Other observations

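The 45 control cells of a sub-cluster led by *Mmp3*, *C4b* and *Gdf10* were left out of the fibroblasts because *Mlana*, a melanocyte marker, was among their top 10 genes. They held *Dcn* at 16067 and *Lum* at 5418 CPM, with *Aspn* at 686, and 0 cells of *SM22-SmoM2* joined them. With the sub-clusters left out kept instead, the log2 ratio of *Dcn* in *SM22-SmoM2* over control fibroblasts was -1.31 in place of -1.28.

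*Podnl1*, an SLRP gene outside the 9, was at 42.9 and 30.05 CPM in the *Crabp1*, *Igfbp2*, *Prss35* sub-cluster of control and *SM22-SmoM2*, and at 9.39 or lower in the 14 other groups of at least 30 cells. *Podn* was at 82.3 in the *Thbs4*, *Cst6*, *Trf* sub-cluster, where *Podnl1* had 0 UMIs (3 UMIs would be 4.41 CPM).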
